A study of Oryza sativa Japonica Group with 6 samples.

Results

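The core of abscisic acid (ABA) signalling was followed in rice seedlings through 31 genes of 55801 loci in the deposited tables. The genes were taken by locus number from a fixed list in 4 layers, comprising 6 PYL receptor genes, 8 clade A protein phosphatase 2C (PP2C) genes, the 10 SnRK2 kinase genes SAPK1 to SAPK10, and 7 genes of bZIP and B3 transcription factors. The rule uses locus numbers and no measured value, although the list was drawn up with earlier results of these data known, and all 31 loci were found in both the count table and the TPM table. ABA is the hormone through which plants hold back growth, close stomata and prepare cells for water loss. A receptor of the PYL family that has bound ABA docks onto a clade A PP2C and blocks it. SnRK2 kinases, which the phosphatase otherwise keeps dephosphorylated, are then free to phosphorylate bZIP factors that bind ABA-responsive elements in promoters. In Arabidopsis, transcripts of several clade A PP2Cs rise and those of several receptors fall when ABA is applied.

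Both groups were seedlings of the cultivar Nipponbare harvested at 14 days from growth chambers under short days, without treatment. The control was wild type (WT). The other group carried the allele osino80-2 (called osino80 here) of OsINO80, the ATPase of a chromatin remodelling complex. There were 3 RNA-seq libraries per genotype, made from whole seedlings with a stranded mRNA kit. The labels name a single mutant allele, and neither its lesion nor the number of plants per library is given in the sources used here. Nor is it said whether each library had its own plants. The p-values therefore speak of the spread among these libraries alone, part or all of which may be technical.

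Libraries held 61426662 to 73293481 counts. The OsINO80 transcript, taken as LOC_Os03g22900, fell to 0.511 of its WT level and did not overlap between genotypes. Green leaf markers were abundant: the 3 Rubisco small subunit genes summed to 31049 to 31382 TPM (transcripts per 1000000, a level corrected for transcript length) in WT and 29128 to 29747 TPM in osino80, and all 3 were lower in the mutant. Of 3 root markers 1 was higher (Lsi1), and their sum was 18.8 to 20.1 TPM in WT against 23.2 to 25.1 TPM in osino80. Lsi1 made up most of that sum, at 15.2 TPM in WT and 19.7 TPM in osino80 on average. PIP2.5 (1.22 and 1.245 TPM) and RCc3 (2.95 and 3.47 TPM) were low and overlapped between genotypes. The 2 seed oleosin genes, markers of seed remains, had at most 14 counts in any library. The part of these tissue markers in the results below was not tested. In whole seedlings, fewer cells of a type and less RNA per cell cannot be told apart.

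Genotypes were compared with the quasi-likelihood test of edgeR over all 24914 genes that passed the low-count filter, and "adjusted p" below is its Benjamini-Hochberg value over all of them, with a threshold of 0.05. Of the 31 members 30 passed the filter, VP1 being the exception, and 14 of these passed the test. That is 46.7% of the tested members, beside 37.6% of all tested genes. The directions differed by layer. Among the receptors 2 of 6 were higher in osino80 and none lower, and among the phosphatases 6 of 8 were lower and none higher. The kinases split into 3 higher and 2 lower of 10, and 1 of 6 tested transcription factors was lower. Over all tested genes 18.4% were higher and 19.1% lower. The median log2 fold change was 0.33 over the PYL genes, -0.40 over the PP2C genes, 0.03 over the SnRK2 genes and -0.02 over the tested factors, beside 0.00 over all tested genes. The PYL median lies between 2 genes of low depth that did not pass, LOC_Os06g36670 at 0.289 and LOC_Os01g61210 at 0.377. With 4 further PYL loci added, it was 0.23 over those tested. The called receptor genes were 33.3% of their layer, beside 37.6% of all tested genes. No member changed by as much as 2-fold with a call, and 1 called member changed by more than 1.5-fold. The 3 libraries of one genotype lay wholly above or below the other 3 in 17 of 30 tested members, 56.7%, where 45.7% of all tested genes did so.

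**Figure D1:**
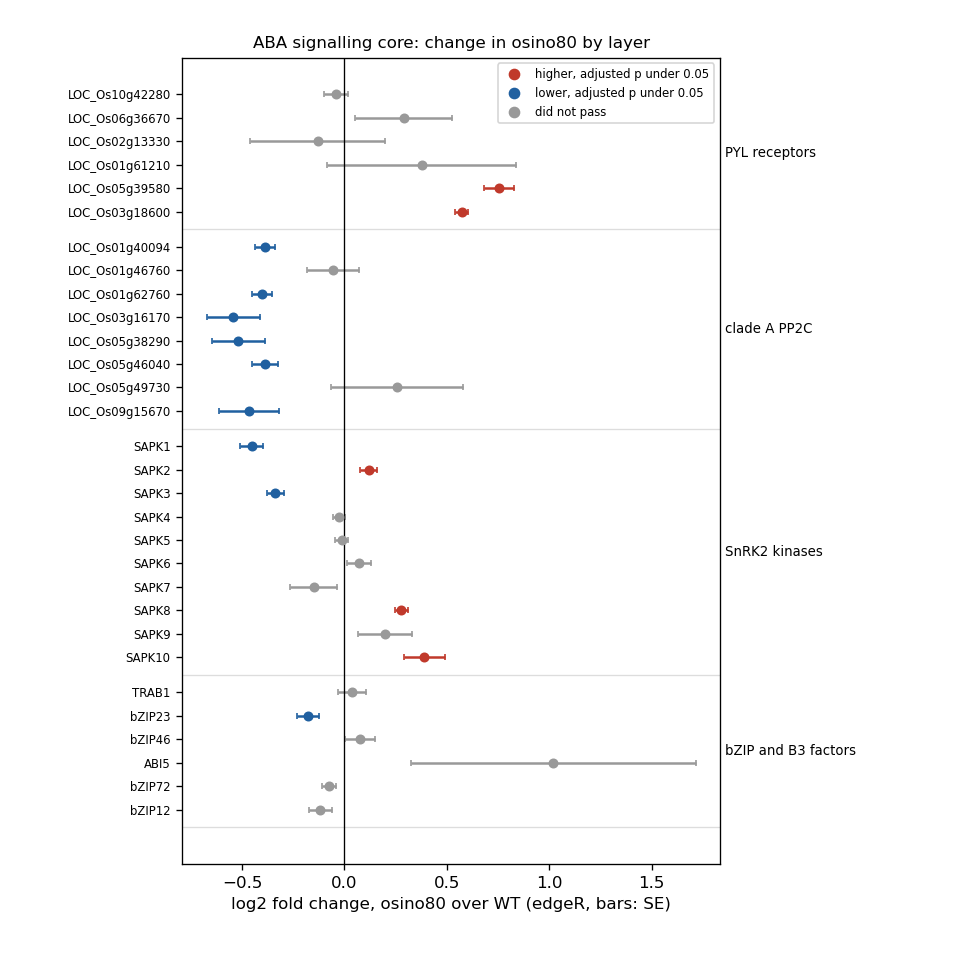
Log2 fold change of the 30 tested members, osino80 over WT, by layer, on the x axis (points, edgeR estimate; bars, SE; red, higher and blue, lower at an adjusted p under 0.05; grey, did not pass). The 6 blue points of the PP2C layer lie between -0.54 and -0.39, and the 2 red points of the PYL layer lie at 0.57 and 0.75.

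PYL receptors. Of the 6 receptor genes the most abundant one rose, and so did the third in rank. LOC_Os03g18600 had 64.0, 65.3 and 63.0 CPM (counts per 1000000, TMM-scaled) in WT replicates 1 to 3 and 97.4, 95.0 and 93.3 CPM in osino80 replicates 1 to 3. Each mutant library was thus far above each WT library. The log2 fold change was 0.57 ± 0.03 (SE), a 1.49-fold rise with an adjusted p of 1.95e-54. LOC_Os05g39580 had 9.73, 10.2 and 10.8 CPM in WT and 16.4, 19.1 and 16.3 CPM in osino80, again without overlap. It rose 1.69-fold, the largest change of a member that passed the test (log2 fold change 0.75 ± 0.08, SE, adjusted p = 4.97e-20).

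The second most abundant receptor gene of the list, LOC_Os10g42280, had 22.4, 24.1 and 21.5 CPM in WT and 22.0, 22.2 and 21.8 CPM in osino80. Its groups overlapped, and its log2 fold change of -0.04 had a 95% interval of -0.16 to 0.07, which leaves out rises of the size seen in LOC_Os03g18600 and LOC_Os05g39580. The remaining 3 receptor genes had 10 to 94 counts per library and did not pass. LOC_Os06g36670 had a log2 fold change of 0.29 ± 0.23, LOC_Os01g61210 of 0.38 ± 0.46 and LOC_Os02g13330 of -0.13 ± 0.33 (SE). The depth of these 3 does not resolve a change of 1.2-fold: for LOC_Os06g36670, whose libraries did not overlap, the 95% interval ran from -0.17 to 0.75.

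On the length-corrected scale the receptor layer was steep. LOC_Os03g18600 stood at 84.9 ± 1.73 TPM in WT (SD, n = 3), LOC_Os10g42280 at 54.4 ± 3.42 TPM and LOC_Os05g39580 at 11.5 ± 0.983 TPM. The other members were at 2.06 ± 0.558 TPM (LOC_Os02g13330), 1.75 ± 0.220 TPM (LOC_Os06g36670) and 0.681 ± 0.305 TPM (LOC_Os01g61210), and the first 2 of these did not differ beyond their spread. LOC_Os03g18600 alone made up 54.7% ± 0.664 of the summed receptor TPM in WT and 61.9% ± 1.17 in osino80 (SD, n = 3). The share of LOC_Os10g42280 went from 35.0% ± 1.07 to 26.2% ± 0.591.

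Clade A PP2C. These phosphatases are the negative regulators of the pathway, and 6 of the 8 genes fell in osino80 by similar proportions. The mutant kept 68.6% to 76.5% of the WT level in each of the 6. LOC_Os01g62760, the most abundant, had 36.7, 38.8 and 38.5 CPM in WT and 29.6, 27.8 and 28.8 CPM in osino80. LOC_Os01g40094 had 37.3, 35.9 and 36.2 CPM in WT and 27.9, 28.3 and 27.4 CPM in osino80. For both genes the highest mutant library was well under the lowest WT library. Their log2 fold changes were -0.40 ± 0.05 (adjusted p = 3.37e-15) and -0.39 ± 0.05 (adjusted p = 6.72e-14).

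LOC_Os05g46040 had 21.4, 23.1 and 20.9 CPM in WT and 15.5, 16.0 and 18.6 CPM in osino80. Here osino80 replicate 3 lay closer to WT than the other mutant libraries, and the groups still did not overlap (log2 fold change -0.39 ± 0.06, adjusted p = 2.65e-08). Less abundant genes fell as well. LOC_Os03g16170 had 5.19, 4.94 and 6.15 CPM in WT and 3.58, 3.59 and 3.96 CPM in osino80 (log2 fold change -0.54 ± 0.13, adjusted p = 0.000169). LOC_Os05g38290 had 4.35, 6.12 and 5.79 CPM in WT and 4.11, 3.79 and 3.44 CPM in osino80 (log2 fold change -0.52 ± 0.13, adjusted p = 0.000359). In the last of these genes WT replicate 1 was close to the mutant libraries, and the gap between the groups was small.

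LOC_Os09g15670 had 3.54, 3.66 and 4.48 CPM in WT and 2.83, 2.93 and 2.67 CPM in osino80. Its fall (log2 fold change -0.47 ± 0.15, adjusted p = 0.00590) rested in part on the high WT replicate 3: without that library the log2 fold change was -0.36 and it no longer passed (adjusted p = 0.0831, with 0.00461 to 0.0831 over all its alternatives). The other 2 genes did not pass. LOC_Os01g46760 had 5.43, 4.20 and 4.58 CPM in WT and 4.77, 4.48 and 4.42 CPM in osino80, with overlapping groups and a log2 fold change of -0.06 (95% interval -0.31 to 0.19). LOC_Os05g49730, the least abundant phosphatase gene, had 24 to 78 counts in WT and 33 to 70 in osino80 and a log2 fold change of 0.26 ± 0.32.

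In TPM, 3 genes carried most of the phosphatase layer in WT: LOC_Os01g62760 at 31.2 ± 0.955 TPM, LOC_Os01g40094 at 27.5 ± 0.417 TPM and LOC_Os05g46040 at 15.1 ± 0.932 TPM (SD, n = 3). The next 4, LOC_Os05g38290, LOC_Os03g16170, LOC_Os01g46760 and LOC_Os09g15670, stood between 4.17 and 5.07 TPM, and neighbours in that order did not differ beyond their spread. LOC_Os05g49730 closed the order at 0.750 ± 0.443 TPM. The shares of these 3 in the layer differed between genotypes by less than their spread. LOC_Os01g62760 made up 33.4% ± 0.666 of the summed PP2C TPM in WT and 33.1% ± 0.947 in osino80, LOC_Os01g40094 29.5% ± 0.725 and 29.3% ± 0.590, and LOC_Os05g46040 16.2% ± 0.826 and 16.4% ± 1.53. LOC_Os01g46760, which did not pass the test, went from 5.04% ± 0.874 to 6.26% ± 0.323 and LOC_Os05g49730 from 0.805% ± 0.483 to 1.26% ± 0.499. In both of these genes the shares of single libraries overlapped between genotypes, and the difference for LOC_Os05g49730 was within its spread.

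**Figure D2:**
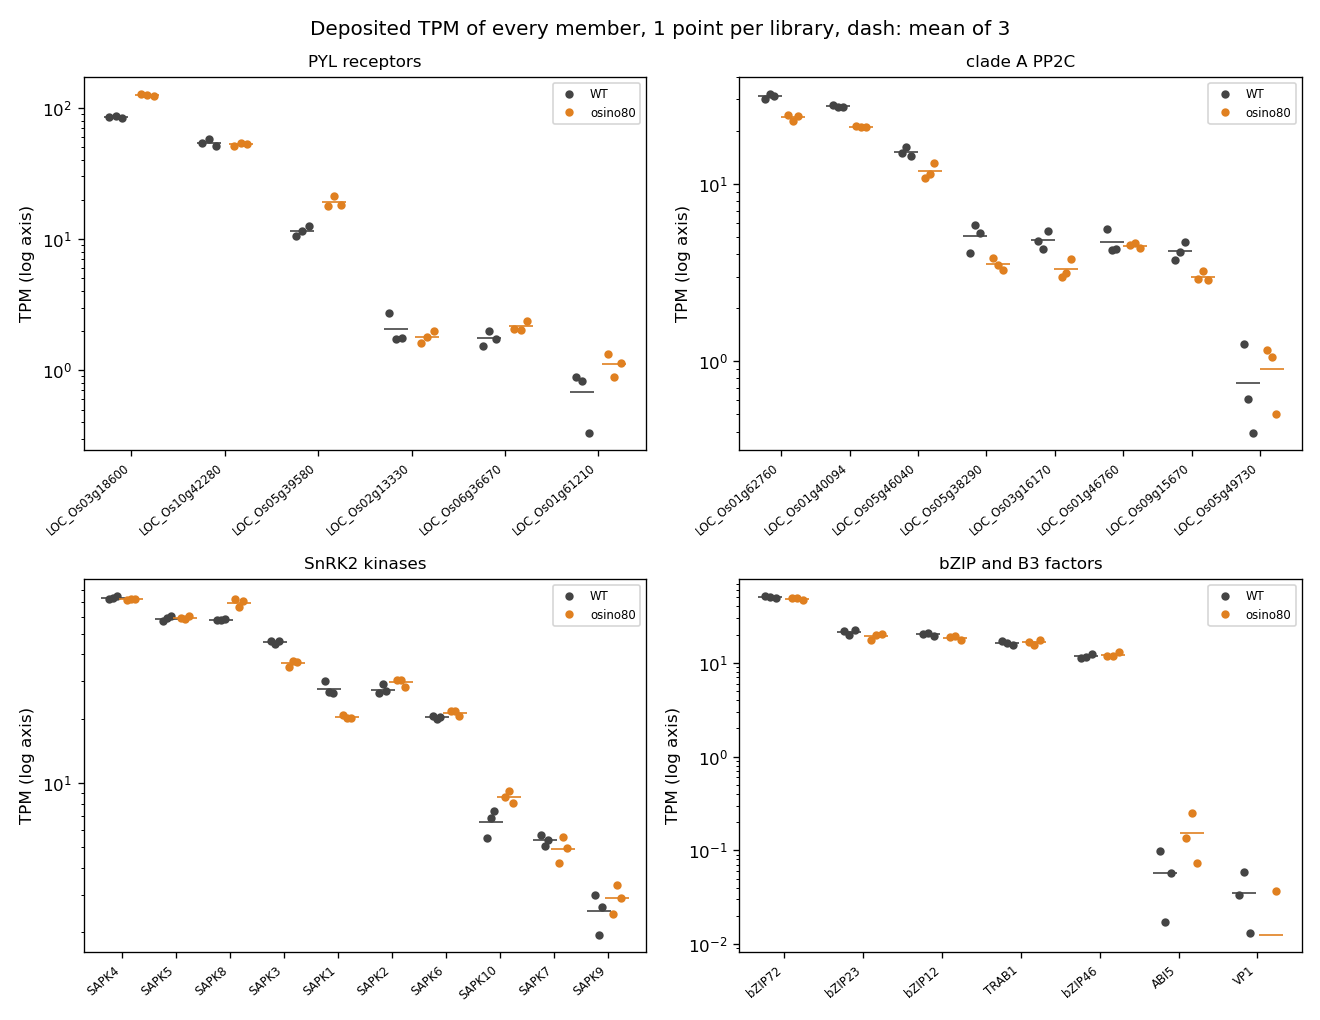
Deposited TPM of every member on a log axis, 1 point per library and a dash at the mean of 3, in WT (grey) and osino80 (orange), with the members of each layer ordered by their WT mean. VP1 is listed at 0 TPM in osino80 replicates 1 and 2, which a log axis cannot show; LOC_Os03g18600 is the highest receptor gene in both genotypes, at 84.9 and 125.2 TPM on average.

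Receptors against phosphatases. Summed over each layer, receptor TPM was higher and phosphatase TPM lower in osino80. The 6 receptor genes summed to 154.6, 160.7 and 150.7 TPM in WT and to 201.6, 204.9 and 200.3 TPM in osino80. The 8 phosphatase genes summed to 92.5, 94.7 and 93.0 TPM in WT and to 71.7, 70.5 and 72.8 TPM in osino80. The groups did not overlap in either sum. The ratio of receptor to phosphatase TPM was 1.67, 1.70 and 1.62 in WT and 2.81, 2.90 and 2.75 in osino80, that is 1.66 ± 0.0386 against 2.82 ± 0.0774 (SD, n = 3). A ratio of transcript levels says nothing of protein amounts, and since it sums over chosen members it is given without a test.

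The list does not hold every rice gene of these families. With 4 more PYL loci and 1 more clade A PP2C locus, the ratio was 2.61 ± 0.0419 in WT and 3.80 ± 0.112 in osino80. Among the added receptor loci LOC_Os02g15640, chosen for mention after its values were seen, was more abundant than any receptor gene of the list in WT, at 106.9 ± 1.67 TPM, and had 106.0 ± 1.75 TPM in osino80 (log2 fold change -0.01, 95% interval -0.07 to 0.05). LOC_Os05g12260 rose by 0.17 ± 0.04 on the log2 scale (adjusted p = 0.000178). Both remaining loci were near silent, LOC_Os06g33640 with 0 counts in every library and LOC_Os06g33690 with at most 10. The added phosphatase locus LOC_Os05g51510 stood at 31.6 ± 1.40 CPM in WT and at 29.2 ± 0.615 CPM in osino80 (SD, n = 3). In TPM it was at 24.7 ± 1.04 in WT, above the listed LOC_Os05g46040 at 15.1, and at 23.0 ± 0.568 in osino80. With a log2 fold change of -0.11 ± 0.05 it did not pass (adjusted p = 0.0570), although it did without WT replicate 2 (0.0299) and with DESeq2 (0.0494), in a range of 0.0299 to 0.266.

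**Figure D3:**
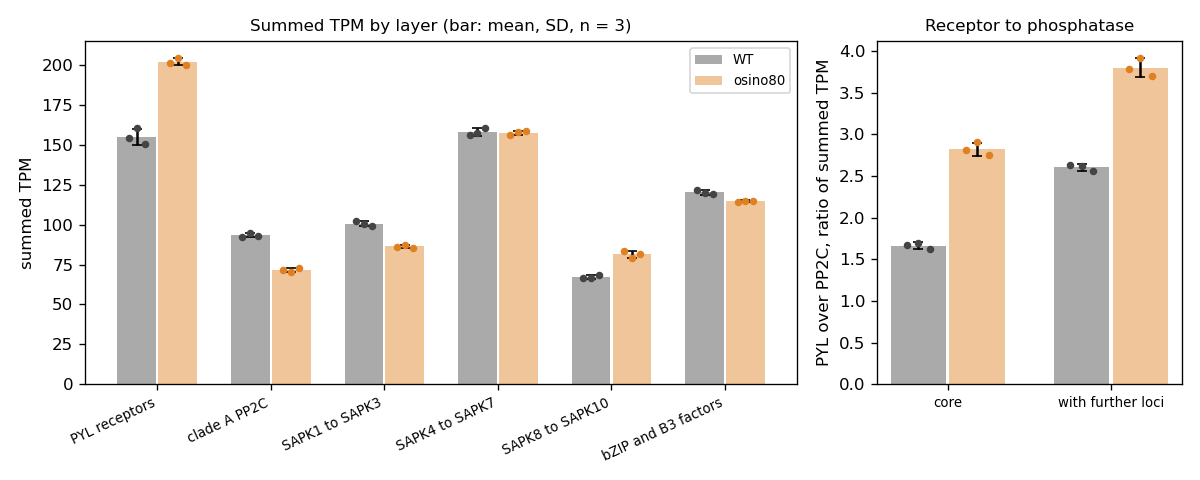
Left, summed TPM of each layer, with the SnRK2 kinases in 3 groups (bars, mean of 3 libraries; error bars, SD; points, libraries; WT in grey, osino80 in orange). Right, the ratio of summed receptor TPM to summed phosphatase TPM for the listed genes and with 5 further loci; in both, each osino80 library is above each WT library, at 2.75 to 2.90 against 1.62 to 1.70 for the listed genes.

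SnRK2 kinases. These kinases carry the signal from the phosphatases to the transcription factors; all of them respond to osmotic stress in rice, and SAPK8, SAPK9 and SAPK10 are also activated by ABA. In osino80 the summed kinase transcript did not move, at 326.1 ± 2.48 TPM in WT and 325.5 ± 0.784 TPM in the mutant (SD, n = 3), while single genes moved in both directions. SAPK1 fell to 73.0% and SAPK3 to 79.1% of the WT level. Of the ABA-activated group SAPK8 rose 1.21-fold and SAPK10 1.31-fold. SAPK4 to SAPK7 did not pass the test.

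SAPK1 had 29.8, 27.1 and 26.6 CPM in WT and 21.3, 19.6 and 20.0 CPM in osino80. SAPK3 had 45.2, 43.9 and 46.0 CPM in WT and 34.8, 35.9 and 36.0 CPM in osino80. In both genes the groups were well apart, with log2 fold changes of -0.45 ± 0.06 (adjusted p = 1.06e-13) and -0.34 ± 0.04 (adjusted p = 2.29e-13). SAPK2 was slightly higher, with 38.0, 41.3 and 39.1 CPM in WT and 43.8, 43.3 and 41.5 CPM in osino80. WT replicate 2 almost reached osino80 replicate 3, and the change of 0.12 ± 0.04 (adjusted p = 0.0153) is the weakest call of the layer. It did not hold when a single library was dropped, namely WT replicate 1 (adjusted p = 0.131) or 3 (0.0511) or osino80 replicate 1 (0.0719) or 2 (0.0596), nor on TPM; its alternatives ranged from 0.00566 to 0.131.

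SAPK8 had 63.6, 65.9 and 66.0 CPM in WT and 81.7, 76.5 and 78.7 CPM in osino80, a log2 fold change of 0.28 ± 0.03 (adjusted p = 3.62e-15). SAPK10 had 6.08, 6.79 and 7.57 CPM in WT and 8.77, 9.63 and 8.34 CPM in osino80, a log2 fold change of 0.39 ± 0.10 (adjusted p = 0.000466). Neither gene overlapped between genotypes. The third ABA-activated kinase gene, SAPK9, had 222 to 337 counts per WT library and 252 to 314 per osino80 library; its log2 fold change of 0.20 ± 0.13 did not pass (95% interval -0.06 to 0.46), and it was 0.06 without WT replicate 2, the lowest library, 0.12 without osino80 replicate 2 and 0.32 without WT replicate 1.

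The most abundant kinase gene, SAPK4, had 94.4, 93.6 and 96.6 CPM in WT and 92.3, 93.2 and 93.8 CPM in osino80. The groups overlapped, and the 95% interval of its log2 fold change was -0.08 to 0.03. SAPK5 had an interval of -0.08 to 0.05, SAPK6 of -0.04 to 0.18 and SAPK7 of -0.38 to 0.08. All 4 intervals exclude a rise of the size estimated for SAPK8.

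In WT the kinase genes were ordered by TPM as SAPK4 (73.6 ± 1.07), SAPK5 (58.8 ± 1.54), SAPK8 (58.1 ± 0.586), SAPK3 (45.7 ± 0.974), SAPK1 (27.6 ± 2.03), SAPK2 (27.4 ± 1.39) and SAPK6 (20.3 ± 0.319), followed at a distance by SAPK10, SAPK7 and SAPK9 between 2.51 and 6.59 TPM. SAPK5 and SAPK8 did not differ beyond their spread, nor did SAPK1 and SAPK2. Both ties were gone in osino80: SAPK8 stood at 69.8 ± 3.02 TPM above SAPK5 at 59.2 ± 1.02, and SAPK2 at 29.6 ± 1.20 above SAPK1 at 20.3 ± 0.319. By group, SAPK1 to SAPK3 summed to 100.7 ± 1.67 TPM in WT and 86.4 ± 1.03 in osino80, SAPK4 to SAPK7 to 158.2 ± 2.38 and 157.7 ± 1.16, and SAPK8 to SAPK10 to 67.2 ± 1.35 and 81.4 ± 2.23.

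Transcription factors. The bZIP genes TRAB1, bZIP23, bZIP46, bZIP72, bZIP12 and ABI5 encode factors that bind ABA-responsive elements, and VP1 encodes a B3 factor of seed maturation that TRAB1 binds. Of its 6 tested genes 1 passed, and the layer summed to 120.4 ± 1.48 TPM in WT and 114.8 ± 0.651 TPM in osino80 (SD, n = 3), without overlap. bZIP23, a regulator of drought and ABA responses, had 27.7, 24.9 and 29.1 CPM in WT and 22.6, 24.5 and 25.1 CPM in osino80. Its groups overlapped, as WT replicate 2 lay below osino80 replicate 3. The log2 fold change was -0.18 ± 0.05 (adjusted p = 0.00415), and the call was lost without WT replicate 3 (adjusted p = 0.0880) or osino80 replicate 1 (0.0650) and on TPM (0.000420 to 0.114 over all alternatives).

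bZIP72, the most abundant factor gene at 50.5 ± 1.20 TPM in WT, had 64.8, 62.5 and 60.9 CPM in WT and 60.7, 59.3 and 58.7 CPM in osino80. Its groups were apart by a narrow gap, and it did not pass with a log2 fold change of -0.08 ± 0.03 (adjusted p = 0.0707), although it did without WT replicate 3 (0.0369, range 0.0369 to 0.331). bZIP12 had 24.6, 25.4 and 23.6 CPM in WT and 23.5, 23.0 and 21.4 CPM in osino80, and at -0.12 ± 0.06 (adjusted p = 0.0873) did not pass either. TRAB1 and bZIP46 overlapped between genotypes, with 95% intervals of -0.10 to 0.17 and -0.07 to 0.22 on the log2 scale.

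Both factors known best from seeds and embryos were close to silent in these seedlings. ABI5 counts were 12, 2 and 4 in WT libraries and 12, 16 and 6 in mutant ones, at most 0.253 TPM in any library, and its 95% interval of -0.35 to 2.39 on the log2 scale is too wide to place a change. VP1 counts were 4, 6 and 2 in WT libraries and 0, 0 and 4 in mutant ones, and it was not tested. The order of the factor genes in WT was bZIP72, bZIP23 (21.5 ± 1.63 TPM), bZIP12 (20.3 ± 0.683), TRAB1 (16.3 ± 0.768) and bZIP46 (11.8 ± 0.616), in which bZIP23 and bZIP12 did not differ beyond their spread. The same order held in osino80.

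Neighbouring loci. The 14 called members were set beside the tested loci numbered next to them on either side, 28 in all. Of these neighbours 13 passed the test, 46.4% beside 37.6% of all tested genes, of which 6 moved in the direction of the member and 7 against it. The neighbours of LOC_Os03g18600 did not pass, at 0.07 and 0.11 on the log2 scale. Beside LOC_Os05g39580, LOC_Os05g39610 rose by 0.15 and LOC_Os05g39560 did not pass. SAPK10 stood between loci that fell, LOC_Os03g41438 by 0.43 and LOC_Os03g41510 by 0.34 on the log2 scale. LOC_Os03g16170 was the 1 member whose neighbours both moved with it, LOC_Os03g16150 at -0.42 and LOC_Os03g16210 at -0.25.

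Genes around the core. Further lists describe what lies below and above the signalling core. They hold 8 genes whose transcripts are known to respond to ABA and 8 genes listed under ABA synthesis and breakdown. Of the response genes 6 were tested, 3 were lower and 1 was higher. The 4 that passed were 66.7% of those tested, beside 37.6% of all tested genes. In WT the dehydrin gene RAB16A had 412, 337 and 326 counts, against 102, 74 and 89 in the mutant. LEA3, a late embryogenesis abundant protein gene, went from 331, 333 and 302 counts to 64, 49 and 49. RAB16B, numbered next to RAB16A and of the same family, went from 66, 85 and 50 counts to 10, 13 and 18. In none of the 3 did a mutant library come near a WT library.

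The fall of RAB16B, a log2 fold change of -2.19 ± 0.39 (adjusted p = 4.72e-07), became -0.92 on log2(TPM + 1), a scale that understates the change of low genes. RAB16A at -1.92 ± 0.16 and LEA3 at -2.48 ± 0.18 changed by more than any called member of the core. Levels of these genes were low, with WT means of 7.28 TPM for RAB16A, 5.60 TPM for LEA3 and 1.52 TPM for RAB16B. RAB16C, at -1.16 ± 0.50, missed the threshold (adjusted p = 0.0532), except without WT replicate 3 (0.0263, range 0.0263 to 0.317). LIP9, a dehydrin gene at 44.1 ± 3.27 TPM in WT, did not pass at 0.04 ± 0.04 (SE). SALT, a lectin gene induced by salt and ABA and named after its values were seen, rose from 33.9 ± 1.49 to 39.8 ± 1.07 CPM (log2 fold change 0.23 ± 0.04, adjusted p = 3.00e-06). Like LIP9, SALT was more abundant in WT than the genes that fell, at 40.7 TPM. RAB16D, with at most 6 counts in a library, and EM, with 0 counts in every library, were not tested. RAB16A to RAB16D are tandem copies with similar sequences, which makes the assignment of reads to single copies uncertain.

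Of the genes listed under synthesis and breakdown 4 of 8 were higher, 2 were lower, and NCED4 and NCED5, at 11 to 44 counts per library, did not pass. Those that passed were 75% of the list, beside 37.6% of all tested genes. ZEP, the zeaxanthin epoxidase that makes precursors of ABA, rose from 290.1 ± 2.88 to 353.9 ± 3.69 CPM (SD, n = 3), or by 0.29 ± 0.02 on the log2 scale (adjusted p = 4.24e-39). The locus listed as NCED1, LOC_Os02g47510, rose from 430.9 ± 3.24 to 479.0 ± 6.98 CPM (log2 fold change 0.15 ± 0.02, adjusted p = 1.77e-15). Its name was not found in the reference used, and whether it acts in ABA synthesis was not tested. NCED3, of the family whose enzymes cleave precursors of ABA, fell from 1.96 ± 0.240 to 1.22 ± 0.151 CPM (log2 fold change -0.69 ± 0.21, adjusted p = 0.00518). It stood at 1.04 TPM in WT, against 340.3 TPM for the locus listed as NCED1. The NCED3 call was lost on TPM, where the value was -0.22 with a pseudocount of 1 and -0.42 with one of 0.1 (range 0.00341 to 0.180).

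The ABA 8'-hydroxylase genes, whose enzymes inactivate ABA, did not move together. ABA8ox1 rose by 0.36 ± 0.12 and ABA8ox3 by 0.30 ± 0.10, and ABA8ox2 changed by -0.35 ± 0.11 on the log2 scale (adjusted p = 0.00655, 0.00616 and 0.00477). In none of these genes did the groups overlap, and no alternative turned a sign. Each call was still lost in some alternatives. That of ABA8ox1 was lost without osino80 replicate 2 (adjusted p = 0.0827) and on TPM. That of ABA8ox3 was lost without osino80 replicate 2 (0.0711) and that of ABA8ox2 without WT replicate 1 (0.0665). In the same order, the ranges were 0.00360 to 0.0827, 0.00317 to 0.0711 and 0.00274 to 0.0665. Among further relatives of the core, bZIP40 rose from 14.2 ± 0.455 to 17.9 ± 0.920 CPM (log2 fold change 0.33 ± 0.07, adjusted p = 1.58e-05). In all, 2 of the 7 tested relatives passed, both higher, which is 28.6% beside 37.6% of all tested genes. bZIP42 and SLAC1, the anion channel gene of guard cells, did not pass at -0.09 ± 0.07 and 0.02 ± 0.06, nor did bZIP62 at 0.59 ± 0.35.

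**Figure D4:**
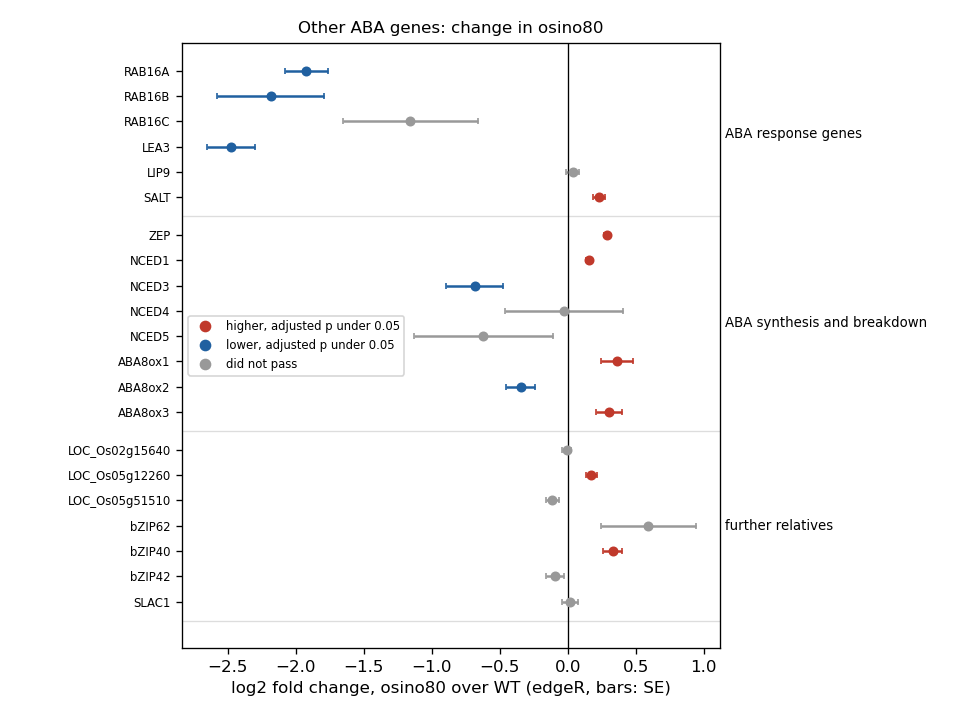
Log2 fold change, osino80 over WT, of the 21 tested genes of 3 further ABA lists on the x axis (points, edgeR estimate; bars, SE; red, higher and blue, lower at an adjusted p under 0.05; grey, did not pass). LEA3, RAB16B and RAB16A lie at -2.48, -2.19 and -1.92, outside the range of -0.54 to 0.75 taken by the called members of the core.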

How the data were processed

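The authors deposited raw counts per locus and TPM for 3 WT and 3 osino80 libraries; the submitters' processing notes name cutadapt, HISAT2, SAMtools and featureCounts. Their versions, the build, annotation, strand setting and source of TPM are not stated in the labels or file headers. The deposited TPM is a second quantification of the same libraries, not an independent measurement. It differs from the counts in places: 665 loci above 0 in TPM have 0 counts, and 732 loci with counts have 0 TPM. Between 82.4% and 83.7% of counts from 1 to 20 were even, as happens when mates are counted separately, so the fragments behind a count may be fewer than the count.

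The files do not pair locus numbers with names. Names come from published locus numbers; the reference table (ASM3414082v1) placed 27 of 46 names on the expected chromosome, all 31 pairs sharing a chromosome being in the same order, and did not hold the others, bZIP46, ABI5, bZIP72 and bZIP12 among them.

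Counts were tested with edgeR 4.0.16 (R 4.3.3; filterByExpr, TMM, glmQLFit with robust=TRUE, glmQLFTest), two-sided. Standard errors are the absolute log2 fold change over the square root of F. Scripts were tested on simulated data. All members are named, with every called context gene and the 3 smallest p per context list. Alternatives were other scalings and filters, DESeq2 1.42.0, limma 3.58.1 (voom, and log2(TPM + 1 or 0.1)), robust=FALSE, halved counts, a replicate block and each library left out. Members and lists were chosen with earlier results of these data known. Deviations of same-numbered libraries had correlations of 0.0117, -0.0173 and 0.00981, so replicate numbers were not used as pairs. No replicates agreed within sampling noise, with chi-square values per degree of freedom of 3.6 to 4.03 between libraries of a genotype. These values take each count as independent, and mates counted separately would raise them.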

Additional observations from a re-analysis of the deposited data

How the results depend on the processing

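Of the 14 called members, 11 kept direction and call in all 17 alternatives; SAPK2, bZIP23 and LOC_Os09g15670 lost theirs in some. With the replicate block 9329 genes were called (9363 without it), the same 14 members among them; 12 members were called on TPM and 12 to 14 with 1 library left out (8275 to 8515 of all genes, 10 to 13 context genes). Ratios of summed levels, osino80 over WT, moved beyond the spread between libraries when CPM was summed in place of TPM: PYL 1.38 (1.30 in TPM), PYL with further loci 1.19 (1.17), SAPK1 to SAPK3 0.880 (0.857) and PYL over PP2C 1.81 (1.70); CPM weights long genes more. Signs turned only in genes that did not pass: SAPK5 became 0.0090 and 0.0091, and SLAC1 -0.0076 and -0.0082, on TPM with pseudocounts of 1 and 0.1, and NCED4 became 0.0016 with the replicate block, 0.063 with limma voom, 0.021 on log2(TPM + 0.1) and 0.017 with halved counts. With 1 library left out SAPK5 ranged from -0.036 to 0.0010, LOC_Os01g46760 from -0.14 to 0.054, LOC_Os02g13330 from -0.24 to 0.12, LOC_Os10g42280 from -0.079 to 0.0042, LOC_Os05g49730 from -0.039 to 0.75, LOC_Os02g15640 from -0.025 to 0.0034, TRAB1 from -0.0018 to 0.063, LIP9 from -0.017 to 0.068, NCED4 from -0.32 to 0.48 and SLAC1 from -0.052 to 0.055; the cause was not tested. Depth limits ABI5, VP1 and the 3 least abundant PYL genes.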
